A study of Homo sapiens with 6 samples.

Results

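The genes described here are 10 genes of chromosome 7 at 3 loci that hold imprinted genes, out of 60483 genes listed in the count table. MEST, PEG10 and SGCE are expressed from the paternal copy, CPA4, KLF14 and PPP1R9A from the maternal copy in some tissues, and GRB10 from one copy or the other depending on isoform and tissue. COPG2, CASD1 and DLX5 lie beside them and are not imprinted in human or are disputed. The 10 genes were chosen by locus with the difference between CDK12 KO and WT in these same libraries already known, MEST being among the genes with the largest decrease, so the list was in effect selected on the raw counts of this contrast. Their KO and WT values are therefore given as a description with no p-value, and whether the fit over all genes called them is given only as part of that description.

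RNA was sequenced from A2780 cells, a human ovarian carcinoma line, and from an A2780 clone in which CDK12, a kinase that acts on RNA polymerase II, had been disrupted in exon 1 with CRISPR/Cas9, with 3 libraries in each group. The KO group is a single clone, isolated after a second round of transfection and single-cell selection from a clone that had lost only one functional copy, so clone and genotype cannot be told apart. Both groups grew untreated in RPMI with serum and glutamine. By karyotype, the clone carries a nearly doubled chromosome set, and both groups carry a chromosome 7 with added material at 7q32, the band of MEST. The karyotype of the clone also lists a loss of chromosome 7 copies relative to its doubled set. The WT entry names chromosome 7 without a sign of loss or gain. Nothing in the sources says that the 3 libraries of a group came from separate cultures, so p-values below measure the spread between these libraries, which may be technical. Counts per gene do not separate the parental copies, so imprinting itself was not measured, and in bulk RNA fewer expressing cells and less RNA per cell cannot be told apart.

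Genomic imprinting is the expression of a gene from only the copy inherited from the mother or only that inherited from the father. The choice is set in the germ line by DNA methylation of a CpG-rich control region, often at the promoter of one gene of the cluster, and is kept through cell divisions by DNMT1 with UHRF1 and by zinc finger proteins such as ZFP57 and ZNF445 that bring TRIM28 to the methylated copy. At 7q32 the control region lies at MEST and at 7q21 at the shared start of PEG10 and SGCE, and in both the unmethylated paternal copy is the active one. Loss or gain of methylation at such regions is common in tumour lines.

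Total counts per library lay between 11098400 in WT replicate 3 and 30899045 in WT replicate 2. CPM, counts scaled by edgeR's TMM factors to a library total of 1000000, is the level used below, and 3 counts correspond to 0.100 to 0.270 CPM in a single library. CDK12 was at 115 ± 11.1 CPM in the WT group and 98.0 ± 4.64 CPM in the KO group (SD, n = 3 each), and its counts do not tell edited from unedited transcripts. Of the markers that would check an ovarian epithelial line, PAX8, WT1 (the Wilms tumour gene), MUC16, KRT7 and CDH1 had at most 6 counts in any library, while KRT18 stood at 59.9 ± 1.96 CPM in the WT group and 103 ± 2.73 CPM in the KO group, KRT8 at 7.34 ± 0.262 and 10.96 ± 0.495 CPM and EPCAM at 3.19 ± 0.794 and 2.17 ± 0.0446 CPM (SD, n = 3 each). EPCAM was thus lower and both keratins higher in KO, none of them past the fold threshold. The mesenchymal genes VIM, CDH2, COL1A1 and COL1A2 summed to between 12355 and 12550 CPM in the WT group and between 4162 and 4313 CPM in the KO group, CDH2 having 0 counts in KO, and the blood and endothelial genes PTPRC, CD3E and PECAM1 had at most 2 counts each in any library. The mesenchymal sum moved in the same direction as MEST and PEG10, and its part in their values was not tested.

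Of the 10 genes, 7 had enough counts to be tested in edgeR, and CPA4, KLF14 and PPP1R9A did not. MEST, PEG10 and SGCE were called lower in KO, where called means that the adjusted p was below 0.05 and the log2 fold change either below -1 or above 1. DLX5 was called higher, and GRB10, CASD1 and COPG2 were not called. Over all 16198 tested genes, 7.73% were called lower and 8.30% higher. The KO and WT values did not overlap in 5 of the 7 tested genes, and in 66.4% of all tested genes. The members were picked from this contrast, so nothing is read from these counts.

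MEST encodes a predicted hydrolase of the endoplasmic reticulum and is strongly expressed in embryonic mesoderm. The gene (ENSG00000106484) lies on the plus strand at chr7:130486171-130506465 of GRCh38. It was counted 20932, 23378 and 8239 times in WT replicates 1 to 3 and once in each of the KO libraries (1, 1 and 1 counts). The WT level was 762 ± 19.2 CPM and the KO level 0.0447 ± 0.0101 CPM (SD, n = 3 each), so every KO library was under the level of 3 counts. The ratio of WT to KO from the summed, scaled counts was 17727, with an exact 95% counting interval of 6065 to 85961 that covers counting error only. edgeR's fitted log2 fold change was -13.93, a value that depends on the prior count added to the KO libraries.

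The promoters of MEST are shown because MEST was almost silent in KO, beside those of a neighbour that was also near 0 and of one that was not. RefSeq windows of 300 bases, from 250 bases before to 50 bases after a start on GRCh38.p14, were used for 7 of the 10 genes; PEG10, SGCE and DLX5 were not matched. The table holds 5 MEST windows, of which 2, chosen after their letters were counted, are shown, the one with the most CG among the upstream starts and the one with the most among the internal starts. They are an upstream start at chr7:130486097-130486396 and an internal start at chr7:130491835-130492134, both on the plus strand. CEP41 at chr7:130440967-130441266 and COPG2 at chr7:130668699-130668998, both on the minus strand, are the nearest coding genes upstream and downstream, CEP41 near 0 in KO and COPG2 not. Each sequence reads 5′ to 3′ on the gene's strand, with the CG dinucleotides, the sites of DNA methylation, in capitals.
MEST, upstream start: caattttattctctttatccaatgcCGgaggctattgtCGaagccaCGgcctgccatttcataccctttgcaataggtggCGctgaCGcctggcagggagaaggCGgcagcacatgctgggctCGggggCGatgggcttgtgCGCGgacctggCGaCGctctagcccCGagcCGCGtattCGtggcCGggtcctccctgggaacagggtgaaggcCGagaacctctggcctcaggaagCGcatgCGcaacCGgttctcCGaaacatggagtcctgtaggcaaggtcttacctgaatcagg
MEST, internal start: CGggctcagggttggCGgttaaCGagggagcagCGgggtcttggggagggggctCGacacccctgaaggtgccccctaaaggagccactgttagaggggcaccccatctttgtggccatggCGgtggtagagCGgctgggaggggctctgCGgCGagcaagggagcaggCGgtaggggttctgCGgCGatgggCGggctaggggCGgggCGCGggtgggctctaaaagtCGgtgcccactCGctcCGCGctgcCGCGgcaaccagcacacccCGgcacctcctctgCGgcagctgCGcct
CEP41: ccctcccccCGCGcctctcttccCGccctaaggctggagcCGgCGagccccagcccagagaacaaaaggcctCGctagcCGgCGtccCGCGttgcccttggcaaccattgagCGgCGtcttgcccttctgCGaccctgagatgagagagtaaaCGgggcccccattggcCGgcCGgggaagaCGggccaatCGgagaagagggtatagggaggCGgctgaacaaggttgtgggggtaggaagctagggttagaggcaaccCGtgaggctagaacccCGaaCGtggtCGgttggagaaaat
COPG2: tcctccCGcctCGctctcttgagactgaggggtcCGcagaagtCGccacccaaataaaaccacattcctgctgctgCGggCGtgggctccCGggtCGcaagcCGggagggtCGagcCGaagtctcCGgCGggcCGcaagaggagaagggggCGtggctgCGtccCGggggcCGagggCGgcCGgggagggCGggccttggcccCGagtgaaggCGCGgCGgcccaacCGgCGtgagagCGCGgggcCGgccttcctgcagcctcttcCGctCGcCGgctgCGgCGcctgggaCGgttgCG

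The MEST windows shown hold 22 and 25 CG, and the 5 MEST windows together range from 13 to 25. CEP41 holds 23 and COPG2 37, against a median of 14 over the 35116 windows of the table. At least 22 CG are found in 37.7% of all windows, at least 25 in 32%, at least 23 in 35.8% and at least 37 in 11.3%. The hexamer TGCCGC, the core of the site that ZFP57 binds when methylated, was searched on both strands and occurs 3 times in the internal MEST window, once in the upstream one (1 match) and 0 times in those of CEP41 and COPG2. In the MEST windows not shown it occurs 1, 0 and 2 times. It is present in 16.7% of all windows. The YY1 motif GCCATNTT, on both strands, is in 6.6% of windows and in 0 of those of the 7 members that have a window. These are matches of letters, not measured sites, and methylation was not measured.

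PEG10 and SGCE start head to head at 7q21. PEG10, a gene derived from a retrotransposon whose Gag-like protein forms capsids, lies on the plus strand at chr7:94656325-94669695 (ENSG00000242265). Its counts were 8279, 10272 and 3677 in WT and 5, 3 and 3 in KO. The level was 325 ± 20.95 CPM in the WT group and 0.161 ± 0.0465 CPM in the KO group (SD, n = 3 each), a ratio of 2045 (95% counting interval 1143 to 4097). Every KO library was therefore close to the level that 3 counts give.

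SGCE encodes epsilon-sarcoglycan, a membrane protein of the dystrophin-associated complex that is mutated in myoclonus-dystonia. It lies on the minus strand at chr7:94524204-94656572 (ENSG00000127990), its start 247 bases from that of PEG10, and the annotated genes overlap by 248 bases. SGCE was counted 177, 166 and 57 times in WT and 3, 1 and 0 times in KO. The level was 5.71 ± 0.680 CPM in the WT group and 0.0531 ± 0.0626 CPM in the KO group (SD, n = 3 each), a ratio of 101 (95% counting interval 39.2 to 373). SGCE also overlaps CASD1 on the opposite strand over 32816 bases. The kit keeps strand, but the strand setting used in counting was not given, so reads in the overlaps could be assigned to either gene.

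CASD1, the enzyme that adds acetyl groups to sialic acids, runs on the plus strand at chr7:94509219-94557019 (ENSG00000127995) and its start lies 147 kb from that of PEG10. Its counts were 2917, 3052 and 1186 in WT and 2577, 2671 and 1905 in KO, or 105 ± 2.75 and 104 ± 4.04 CPM (SD, n = 3 each). The groups overlapped, with a log2 fold change of -0.02 (SE 0.0499). PPP1R9A, neurabin, which targets protein phosphatase 1 to actin in neurons, lies on the other side of PEG10 at chr7:94907202-95296415 (plus strand, ENSG00000158528). It was close to undetected in both groups, with 1, 4 and 1 counts in WT and 0 in each KO library, too few to give a fold.

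At 7q32, COPG2 runs on the minus strand at chr7:130506238-130668748 (ENSG00000158623) and its 3′ end overlaps that of MEST by 228 bases. It encodes a gamma subunit of the COPI coat of Golgi vesicles. The counts were 1632, 1687 and 598 in WT and 950, 1013 and 689 in KO. Levels of 56.6 ± 2.86 CPM in the WT group and 38.3 ± 0.611 CPM in the KO group (SD, n = 3 each) gave a log2 fold change of -0.57 (SE 0.0572), and a ratio of 1.49 (95% counting interval 1.42 to 1.57). The groups did not overlap, but the difference was smaller than the threshold on the fold change. The summed WT counts of COPG2 were 7.45% of those of MEST.

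CPA4 and KLF14 flank MEST and were near the limit of detection in both groups. CPA4, a secreted carboxypeptidase, lies on the plus strand at chr7:130293134-130324180 (ENSG00000128510) and had 5, 2 and 1 counts in WT and 0 in each KO library. KLF14, a single-exon zinc finger gene known for its link to fat and insulin traits, lies on the minus strand at chr7:130730697-130734207 (ENSG00000266265), with its start 248 kb from that of MEST. KLF14 had 21, 5 and 3 counts in WT and 1, 0 and 0 in KO. WT replicate 1 alone held 21 of the 29 WT counts. No fold is given for either gene.

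GRB10 lies alone on the short arm, and DLX5 on the long arm between PPP1R9A and CPA4. GRB10, an adaptor that dampens insulin and IGF signalling, lies at 7p12 on the minus strand at chr7:50590063-50793462 (ENSG00000106070). Its counts were 1574, 1808 and 633 in WT and 1309, 1443 and 1096 in KO, or 58.3 ± 1.82 and 56.2 ± 4.71 CPM (SD, n = 3 each). The groups overlapped, with a log2 fold change of -0.06 (SE 0.0586). Isoforms, on which the imprinting of GRB10 depends, were not separated by these counts.

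DLX5, a homeobox gene of limb, bone and forebrain development, lies on the minus strand at chr7:97020396-97024950 (ENSG00000105880). It was counted 57, 71 and 25 times in WT and 212, 284 and 136 times in KO. Levels were 2.23 ± 0.146 CPM in the WT group and 8.94 ± 1.48 CPM in the KO group (SD, n = 3 each), higher in KO 4.08-fold by summed counts and 2.02 on the log2 scale (SE 0.143). Every KO library was above every WT library. Of the 10 genes, DLX5 was the only one called higher.

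Levels of different genes were compared as CPM per kb of the reference transcript. In WT, MEST was highest at 288 ± 7.27, followed by PEG10 at 126 ± 8.10, CASD1 at 26.7 ± 0.701, COPG2 at 18.1 ± 0.914 and GRB10 at 10.7 ± 0.332 CPM per kb (SD, n = 3 each). SGCE at 3.06 ± 0.364 and DLX5 at 1.58 ± 0.103 CPM per kb came next, and KLF14, CPA4 and PPP1R9A were at 0.114 ± 0.0913, 0.0405 ± 0.0219 and 0.00822 ± 0.00461 CPM per kb. Neighbours in this order did not overlap between libraries, with the exception of KLF14 and CPA4. The order of SGCE and DLX5 depends on the length used. With the union of all annotated exons, which is 20876 bases for SGCE, SGCE was at 0.274 and DLX5 at 1.28 CPM per kb.

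In KO, CASD1 was highest at 26.4 ± 1.03 CPM per kb, followed by COPG2 at 12.2 ± 0.195, GRB10 at 10.3 ± 0.861 and DLX5 at 6.30 ± 1.04 CPM per kb (SD, n = 3 each). PEG10 at 0.0623 ± 0.0180, SGCE at 0.0284 ± 0.0335 and MEST at 0.0169 ± 0.00383 CPM per kb (SD, n = 3 each) rest on 11, 4 and 3 summed counts and have no reliable order. MEST, the highest member in WT, was thus among the tested members near 0 in KO.

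Genes annotated within MEST were few in counts. MESTIT1, an antisense RNA that starts 4.86 kb inside the gene on the opposite strand, had 15, 13 and 6 counts in WT and 0 in each KO library, which is 0.0647% of the WT counts of MEST. MESTIT1 was at least 11.5-fold lower in KO, with the KO level set at 3 counts over the group. The strand setting used in counting was not given, so these counts could be reads of MEST, and no p-value is given. MIR335, a microRNA in an intron of MEST, had 0 counts in all 6 libraries over its annotated 94 bases. These counts do not measure its longer primary transcript. A further antisense RNA, ENSG00000270823, had 13 summed counts in WT and 8 in KO.

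The genes within 1 Mb of the members include 39 other tested genes. Of these, 10 were called lower, 6 higher and 23 not called, against 7.73% lower and 8.30% higher over all tested genes. Their median log2 fold change was 0.04 against 0.00 over all tested genes. Around MEST, from CPA4 to KLF14 with 1 Mb on either side, 21 of 57 listed genes were tested, 8 were called lower and 1 higher, with a median of -0.28. Around PEG10, from CASD1 to PPP1R9A, 7 of 43 were tested, 1 was called lower and 1 higher, with a median of 0.05. The windows were set with the values of MEST and PEG10 known.

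CEP41, a protein of the centrosome and cilium whose start lies 43.7 kb upstream of that of MEST, had 82, 97 and 24 counts in WT and 1, 0 and 0 in KO. The ratio of WT to KO was 205 (adjusted p = 8.4e-15, edgeR), and the groups were separate in all libraries. The pancreatic carboxypeptidase gene CPA1 lies farther upstream, 106 kb from MEST. It had 17, 19 and 7 counts in WT and 0 in each of the KO libraries, at least 14.5-fold lower (adjusted p = 4.7e-08, edgeR).

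Other genes called lower near MEST were mostly noncoding. ENSG00000270953, a noncoding RNA 21.5 kb past the start of MEST and opposite to the end of COPG2, had 62, 45 and 21 counts in WT and 1, 1 and 2 in KO (adjusted p = 9.6e-12, edgeR). It lies on the same strand as MEST at chr7:130507660-130508282, just past the annotated end of MEST at 130506465. Whether its counts are separate from MEST reads that run past that end was not tested. The processed pseudogenes ENSG00000229858 and H4P1, 337 kb past the start of MEST, had 156 and 134 summed WT counts and 3 and 2 summed KO counts. They overlap each other and pseudogenes share sequence with their parent genes, so their counts are uncertain. STRIP2, a partner of the STRIPAK phosphatase complex over 1 Mb upstream, fell less, from 9.46 ± 0.895 to 4.26 ± 0.491 CPM (SD, n = 3 each), which is a log2 fold change of -1.12 (SE 0.119, adjusted p = 8.0e-10, edgeR).

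Genes called lower alternated with genes that were not. TMEM209, a nuclear envelope protein 278 kb upstream of MEST, stood at 43.8 ± 2.02 CPM in the WT group and 42.5 ± 4.50 CPM in the KO group (SD, n = 3 each), with overlapping groups. ZC3HC1 and KLHDC10, which lie beyond it, had log2 fold changes of -0.82 (SE 0.0612, adjusted p = 2.2e-13) and -0.28 (SE 0.0523, adjusted p = 2.0e-05) in edgeR, past the threshold on p but not on the fold. Downstream, LINC-PINT, the noncoding gene in whose span ENSG00000229858 and H4P1 lie, had a log2 fold change of 0.61 (SE 0.123, adjusted p = 6.7e-05, edgeR). PODXL, a sialomucin of podocytes and stem cells, rose from 7.86 ± 1.29 to 22.1 ± 0.421 CPM (SD, n = 3 each), 1.43 on the log2 scale (SE 0.0897, adjusted p = 2.3e-15, edgeR).

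**Figure D1:**
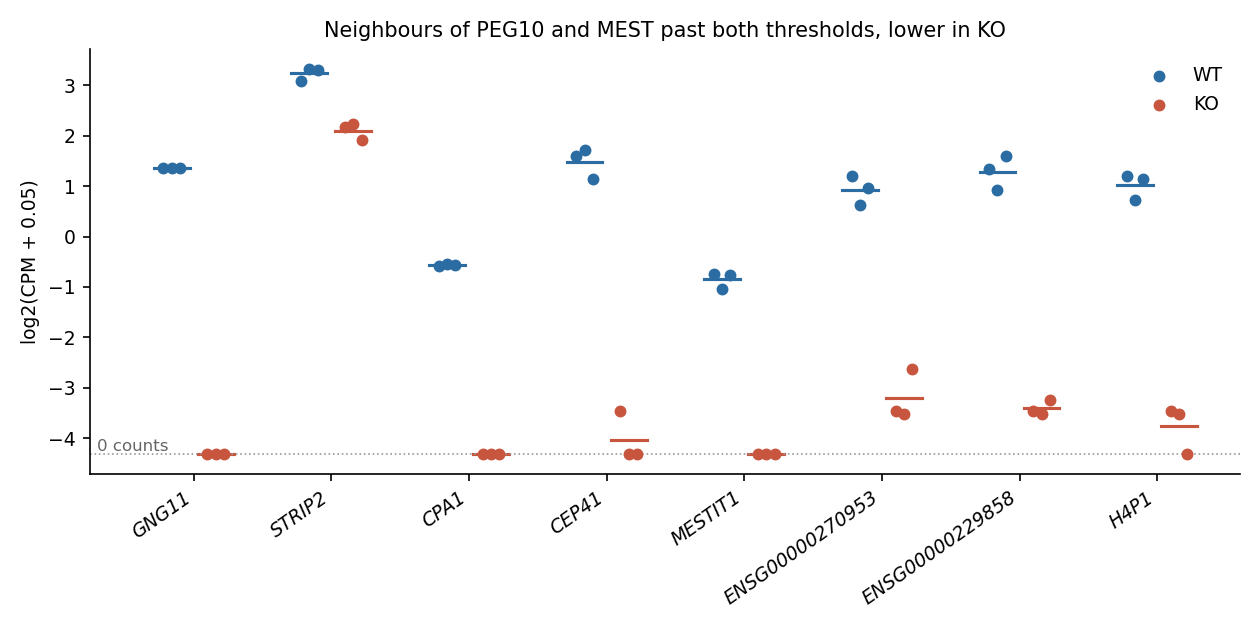
Level in each library of 8 neighbours of PEG10 and MEST called lower in KO, as log2 of CPM plus 0.05, in order of position (points, 3 WT libraries in blue and 3 KO libraries in red; bars, group means of the log2 values; dotted line, 0 counts). GNG11, CPA1 and MESTIT1 had 0 counts in every KO library, and STRIP2 was the only one of the 8 clearly above the dotted line in KO, at 4.26 CPM.

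Around PEG10, the 1 neighbour called lower was GNG11, a gamma subunit of G proteins 735 kb away. It had 69, 75 and 28 counts in WT and 0 in each of the KO libraries, at least 58.0-fold lower (adjusted p = 3.1e-14, edgeR). COL1A2, the collagen gene 261 kb from PEG10, stood at 4577 ± 67.0 CPM in the WT group and 2623 ± 57.0 CPM in the KO group (SD, n = 3 each), which is a log2 fold change of -0.80 (SE 0.0504, adjusted p = 2.4e-15, edgeR) that did not reach the fold threshold. BET1 and PON2, a Golgi SNARE and a lactonase, were at log2 fold changes of 0.09 (SE 0.0576) and 0.05 (SE 0.0478), neither past the threshold on p. DYNC1I1, a dynein chain between PEG10 and DLX5, rose from 2, 2 and 1 counts in WT to 23, 29 and 16 in KO, 13.4-fold by summed counts (adjusted p = 1.5e-08, edgeR).

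**Figure D2:**
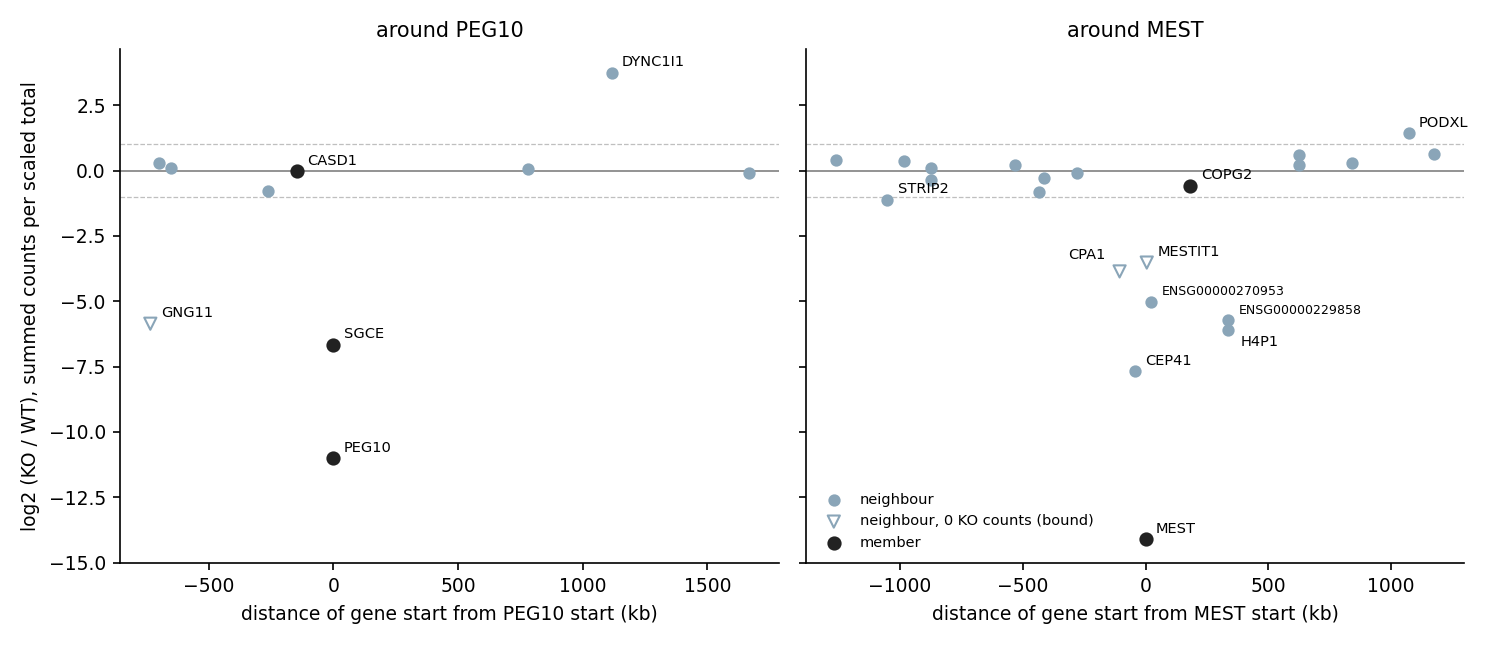
Log2 ratio of KO to WT from summed, scaled counts for the tested genes reported here near PEG10 (left) and MEST (right), against the distance in kb between the starts of the genes (black, members; blue, neighbours; open triangles, neighbours with 0 KO counts, placed at the bound set by 3 counts; dashed lines, 1 and -1). Starts can lie past 1000 kb because distance was measured between starts and the window from the ends of the genes. MEST and the PEG10 and SGCE pair lie far below the line, and COPG2 and CASD1 close to it.

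Around DLX5, 9 of 37 listed genes were tested, 0 were called lower and 3 higher, with a median of 0.16. DLX6, the paired homeobox gene whose start lies 19.4 kb away, rose from 10.2 ± 0.458 to 43.4 ± 1.63 CPM (SD, n = 3 each), 2.09 on the log2 scale (SE 0.0722, adjusted p = 2.3e-22, edgeR). DLX6-AS1, the antisense RNA whose span holds DLX6, rose from 6.83 ± 0.502 to 20.01 ± 0.678 CPM (SD, n = 3 each). That is 1.54 on the log2 scale (SE 0.0889, adjusted p = 2.9e-16, edgeR). The strand setting used in counting was not given, so reads in this overlap could be assigned to either gene. The third called gene was DYNC1I1. DLX5, DLX6 and DLX6-AS1 were thus all higher in each KO library than in any WT library. SEM1 and SDHAF3, on either side of the DLX genes, had log2 fold changes of 0.16 (SE 0.0471, adjusted p = 0.0043) and 0.25 (SE 0.0580, adjusted p = 3.3e-04) in edgeR, past the threshold on p but far from that on the fold.

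Around GRB10, 4 of 25 listed genes were tested. IKZF1, the Ikaros factor of lymphocytes, fell from 7.07 ± 1.20 to 3.11 ± 0.414 CPM (SD, n = 3 each), which is a log2 fold change of -1.19 (SE 0.145, adjusted p = 1.4e-08, edgeR). COBL, an actin nucleator, rose from 4.01 ± 0.190 to 12.2 ± 0.444 CPM (SD, n = 3 each), 1.61 on the log2 scale (SE 0.108, adjusted p = 1.6e-14, edgeR). DDC, the decarboxylase that makes dopamine and serotonin, is imprinted together with GRB10 in some mouse tissues and rose from 5, 12 and 6 counts in WT to 49, 37 and 26 in KO (2.24 on the log2 scale, SE 0.314, adjusted p = 2.1e-07, edgeR). FIGNL1, between IKZF1 and DDC, was at 0.04 (SE 0.0630) and did not pass the threshold on p.

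Chromosome 7 as a whole had 750 tested genes, with a median log2 fold change of -0.04 against 0.00 for the 15210 tested genes of other chromosomes. On chromosome 7, 9.07% were called lower and 7.47% higher, and on the other chromosomes 7.67% lower and 8.31% higher. The medians of the other chromosomes ran from -0.11 to 0.27, and 10 of 22 were below that of chromosome 7. In bins of 10 Mb, the bin from 130 to 140 Mb, which holds MEST and COPG2, had 47 tested genes with a median of -0.17, of which 9 were called lower and 2 higher. The bin from 90 to 100 Mb, which holds PEG10, SGCE and DLX5, had 63 tested genes with a median of 0.01, 5 called lower and 8 higher. CPM sets all libraries to 1 total, so the doubled chromosome set does not appear in these values, and copy number was not measured here.

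The genes of the pathways and families around the members were followed in 10 lists of 106 genes, of which 84 were tested. Of these, 10 were called lower and 10 higher, against 7.73% lower and 8.30% higher over all tested genes. Their median log2 fold change was 0.02. In the list of genes that set, keep or remove DNA methylation or imprints, 14 were tested. By adjusted p alone, 6 of these were lower and 5 higher in KO. DNMT3B, a de novo DNA methyltransferase, was the single gene called, at 38.1 ± 1.92 CPM in the WT group and 18.8 ± 0.852 CPM in the KO group (SD, n = 3 each; log2 fold change -1.01, SE 0.0674, adjusted p = 1.1e-14, edgeR). That value lies at the threshold, and the call was lost without WT replicate 2, KO replicate 1 or KO replicate 3, at -0.974, -0.997 and -0.995. DNMT1 and UHRF1, the maintenance methyltransferase and its partner, were at -0.19 (SE 0.0471, adjusted p = 6.1e-04) and -0.40 (SE 0.0532, adjusted p = 8.7e-08) on the log2 scale in edgeR. TRIM28 was at -0.09 (SE 0.0495, adjusted p = 0.10) and ZNF445 at 0.59 (SE 0.0572, adjusted p = 1.2e-10) in edgeR. Of these 4, all but TRIM28 passed the threshold on p, and none passed the fold threshold. ZFP57 and DNMT3L had 0 counts in all 6 libraries, so that any level was under 0.0438 CPM in the WT group and 0.0433 CPM in the KO group, the level of 3 counts over a group.

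Among 10 tested relatives of PEG10 with a Gag-like domain, 2 were called higher and 0 lower. RTL9 went from 8, 7 and 3 counts in WT to 51, 50 and 47 in KO, 8.12-fold (adjusted p = 1.3e-10, edgeR). ARC, whose protein forms capsids at synapses, went from 2, 5 and 3 to 86, 88 and 63 counts, 23.4-fold (adjusted p = 9.4e-15, edgeR). The other 8, among them RTL8A, RTL8C and LDOC1, were not called.

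Of 9 tested genes of the dystrophin complex that holds SGCE, 2 were called lower and 0 higher. DMD, dystrophin, fell from 281 ± 14.3 CPM in the WT group to 1.23 ± 0.0423 CPM in the KO group (SD, n = 3 each), a ratio of 229 with a 95% counting interval of 185 to 287 (adjusted p = 4.7e-36, edgeR). DTNA, dystrobrevin alpha, fell from 50, 58 and 29 counts to 5, 9 and 4 (log2 fold change -2.93, SE 0.2998, adjusted p = 3.7e-10, edgeR). The utrophin gene UTRN, a relative of DMD, was at 0.54 and was not called. SGCB and DAG1, which encode beta-sarcoglycan and dystroglycan, were at -0.38 and -0.17 on the log2 scale and not called.

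All 9 genes of the COPI list were tested, 0 were called lower and 1 higher. COPG1, the paralogue of COPG2, stood at 208 ± 8.74 CPM in the WT group and 230 ± 2.23 CPM in the KO group (SD, n = 3 each; log2 fold change 0.15, SE 0.0471). The 1 called gene was COPZ2, a zeta subunit, which rose from 0.568 ± 0.150 to 1.64 ± 0.156 CPM (SD, n = 3 each; 1.53 on the log2 scale, adjusted p = 5.9e-06, edgeR). COPA, COPB1, COPB2 and ARCN1, other subunits of the coat, lay between -0.43 and 0.14 on the log2 scale. By adjusted p alone, 3 of the 9 genes were lower and 4 higher in KO.

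The list around GRB10 had 10 tested genes, 1 called lower and 3 higher. GRB14, a paralogue that also binds the insulin receptor, fell from 542, 602 and 229 counts in WT to 4, 2 and 2 in KO, a ratio of 174 with a 95% counting interval of 87.9 to 403 (adjusted p = 8.2e-26, edgeR). IGF1R, the IGF receptor, rose from 37.4 ± 1.41 to 89.0 ± 3.45 CPM (SD, n = 3 each; 1.25 on the log2 scale, adjusted p = 2.5e-19, edgeR), and PIK3R1, the regulatory subunit of PI3K, rose from 28.8 ± 2.34 to 70.8 ± 2.83 CPM (SD, n = 3 each; 1.30, adjusted p = 2.0e-18, edgeR). IRS2, a docking protein of both receptors, rose from 9, 12 and 0 counts to 103, 73 and 49 (adjusted p = 2.1e-11, edgeR). INSR and IRS1 were at -0.10 and -0.29 and not called.

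In the KLF family of KLF14, 14 genes were tested, 2 were called lower and 2 higher. KLF7 fell from 47.8 ± 2.74 to 8.20 ± 0.850 CPM and KLF8 from 4.43 ± 0.930 to 1.24 ± 0.0618 CPM (SD, n = 3 each), log2 fold changes of -2.56 (adjusted p = 6.9e-24) and -1.89 (adjusted p = 7.6e-11) in edgeR. KLF4, a pluripotency factor, rose from 1.03 ± 0.137 to 5.02 ± 0.279 CPM (SD, n = 3 each; 2.28 on the log2 scale, adjusted p = 4.8e-13, edgeR). KLF12 had 0 counts in each WT library and 12, 18 and 7 in KO, at least 12.2-fold higher (adjusted p = 3.4e-07, edgeR), and without KO replicate 2 it no longer passed the filter on low counts.

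The DLX family had 5 tested members beside DLX5 and moved in both directions. DLX1 fell from 403 ± 17.1 to 18.5 ± 1.79 CPM (SD, n = 3 each; log2 fold change -4.43, adjusted p = 3.3e-33, edgeR). DLX2, its partner on chromosome 2, had 5864, 5945 and 2344 counts in WT and 0 in each of the KO libraries, at least 4774-fold lower (adjusted p = 4.9e-34, edgeR). DLX3 rose from 4.47 ± 0.526 to 59.0 ± 0.984 CPM (SD, n = 3 each; 3.76 on the log2 scale, adjusted p = 3.8e-28, edgeR), DLX6 rose as given above and DLX4 was at 0.81 and not called. Of the carboxypeptidase list, CPA1 was called lower as given above, and LXN, a carboxypeptidase inhibitor, was at 0.43 and not called. None of the 4 tested genes beside PPP1R9A, and none of the 6 tested genes of sialic acid handling beside CASD1, were called (0 in either direction).

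**Figure D3:**
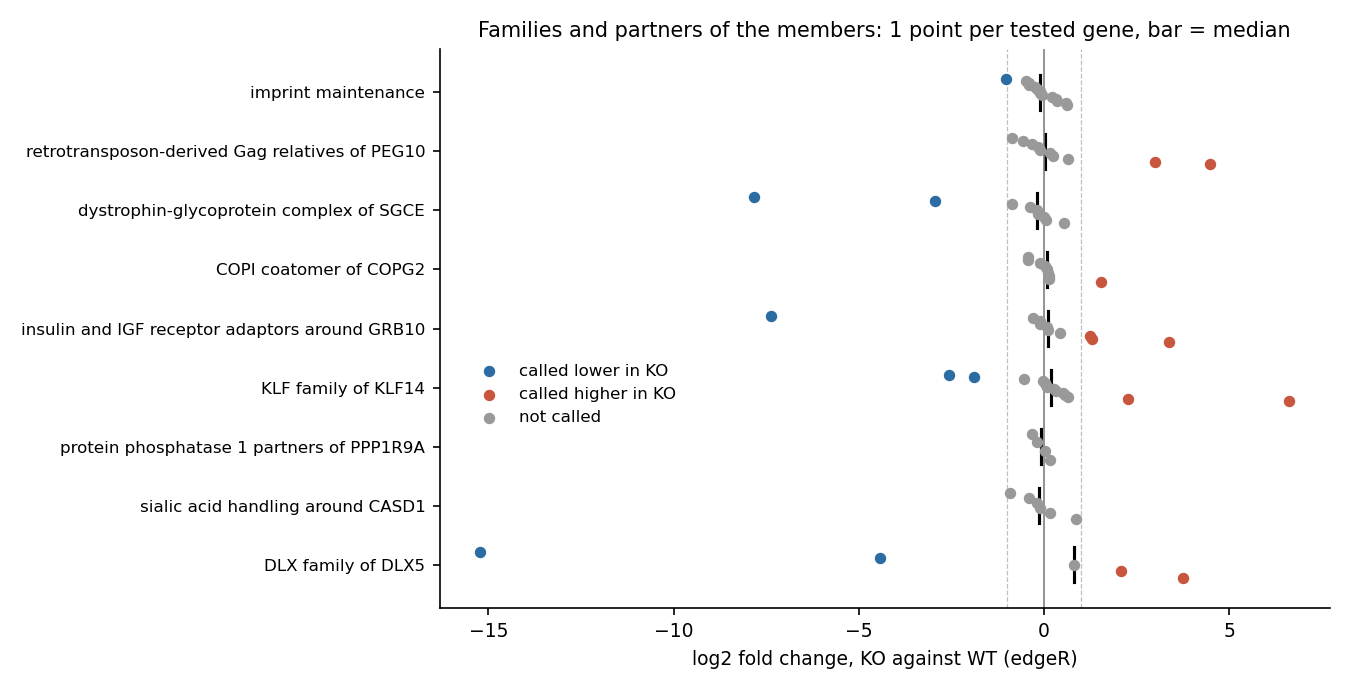
Fitted log2 fold change of KO against WT for the tested genes of 9 of the 10 lists (1 point per gene; blue, called lower; red, called higher; grey, not called; black bar, median of the list; dashed lines, -1 and 1). The carboxypeptidase list is not drawn. The medians of the lists drawn run from -0.19 for the dystrophin complex to 0.81 for the DLX family.

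The tested genes whose log2 CPM profile over the 6 libraries lay nearest to that of MEST, by Euclidean distance, were PEG10, OLFM3, TM4SF1, SPRY1 and DLX2. Those nearest to PEG10 were SPRY1, F2RL2, TM4SF1, NR2F1 and MEST. PEG10 lay at a distance of 3.32 from MEST, while SPRY1 lay at 1.51 from PEG10. SPRY1, an inhibitor of receptor tyrosine kinase signalling on chromosome 4, had 9629, 9549 and 3513 counts in WT and 8, 8 and 2 in KO. OLFM3, an olfactomedin gene on chromosome 1, had 7846, 8806 and 3141 counts in WT and 1, 0 and 0 in KO. Apart from the members, the genes named here as nearest lie on chromosomes other than 7, and a short distance says only that levels in these 6 libraries were alike.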

How the data were processed

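Stranded, single-end RNA-seq reads of 75 bases were obtained from A2780 WT cells and their CDK12 KO clone, with 3 libraries per group. The authors deposited raw counts per Ensembl gene, made, according to the submitters' processing notes, with FastQC, STAR on GRCh38 and HTSeq. Tool versions, annotation release and strand setting are not given in the sources used here. Groups were taken from the genotype in the labels.

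Of 60483 genes listed, 56321 (93.1%) matched GENCODE release 44, which gave positions on GRCh38. In R 4.3.3, edgeR 4.0.16 was used with filterByExpr (minimum count 10, minimum total 15), TMM and its quasi-likelihood test, two-sided, with Benjamini-Hochberg adjustment over 16198 genes. A called gene had an adjusted p below 0.05 together with a log2 fold change outside the range from -1 to 1. Scripts were tested on simulated data. Ratios used counts summed per group over the scaled totals, with exact 95% counting intervals. Where KO had 0 counts, a floor of 3 counts over the group (0.0433 CPM in KO, 0.0438 CPM in WT) gave a bound. Reads carried no molecular identifiers, so intervals and floors cover counting error only. Depth, given as total counts per library, sets the precision of low genes.

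The members, the lists and the tests were chosen with earlier results of these data known. Named were all members and the genes overlapping them, called genes within 1 Mb and in the lists, COPG1, DNMT1, UHRF1, TRIM28, ZNF445, and the 5 genes nearest to MEST and to PEG10. Some genes that these rules name are not reported here. Other genes, such as TMEM209, COL1A2 and UTRN, were named after their values were seen. Alternatives were voom/limma (limma 3.58.1), DESeq2 1.42.0, RLE and upper-quartile normalization, no filter, at least 10 counts in every library, the adjusted p alone, libraries thinned to the smallest total, and each library left out. Promoter windows came from RefSeq (GRCh38.p14).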

Additional observations from a re-analysis of the deposited data

How the results depend on the processing

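Counts of called genes were recomputed under 14 alternatives. Without a filter beyond 1 count, 5 members were called lower, CPA4 and KLF14 being added. With at least 10 counts in every library, 0 members, 2 neighbours and 4 list genes were called lower and 5 list genes higher, since genes near 0 in KO, MEST, PEG10 and SGCE among them, are removed by that filter. With the adjusted p alone, 4 members were called lower, COPG2 being added, 15 neighbours were called lower and 14 higher, and 32 list genes lower and 32 higher. Thinned to the smallest total, 7 neighbours were called lower, CPA1 and MESTIT1 being among those lost, a limit set by depth. With each library left out in turn, 3 members were called lower and 1 higher in every fit, 10 to 12 neighbours lower and 6 higher, and 9 to 11 list genes lower and 9 to 11 higher. DNMT3B was also not called with upper-quartile normalization or with at least 10 counts in every library (-0.99 in both).

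Of 88 recomputed fold changes of members, 88 kept their call and 84 their sign. The 4 that changed sign were near 0 and not called: GRB10 was 0.01 in thinned libraries, and CASD1 lay between 0.01 and 0.02 with upper-quartile normalization, with at least 10 counts in every library and without KO replicate 2. SGCE ranged most, from -7.71 without KO replicate 1 to -5.49 in thinned libraries. MEST ranged from -14.10 to -13.39, PEG10 from -11.19 to -10.71, COPG2 from -0.60 to -0.53 and DLX5 from 1.87 to 2.10. The median of all tested genes moved by at most 0.03. No paired analysis was possible because the labels number the libraries 1 to 6 and the groups share no numbers.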
